A study of Mus musculus with 16 samples.

Results

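The microRNAs mmu-miR-193, mmu-miR-193b, mmu-miR-365, mmu-miR-378 and mmu-miR-22, which are tied to fat and energy metabolism, were followed in mouse dorsal skin with and without PPARβ/δ and with and without chronic ultraviolet exposure. They were chosen by name, as the guide strands linked to adipocytes or to PPAR and PGC-1 metabolism, and are 5 of the 577 miRNAs on the array. All 5 were detected on all 16 arrays and all 5 were tested. In the main limma fit, no member passed an adjusted p of 0.05 in any of the 5 comparisons made. Under other settings of the limma model, miR-193 passed in 5 of 12 for UV in WT. MiR-378 passed in 3 of 11 for UV in KO. MiR-22 passed in 1 of 12 for UV in WT and in 1 of 11 for UV in KO. In the main fit, the nearest were miR-193 in WT skin after UV, at 1.44-fold the level without UV, and miR-22 in KO skin after UV, at 1.27-fold. Both folds are after normalization. Across the other settings of the limma model, the log2 difference ran from 0.18 to 0.52 for miR-193. For miR-22 it ran from 0.05 to 0.40.

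A miRNA guides the silencing complex to messenger RNAs that pair with its seed, the bases 2 to 8 from its 5′ end. MiR-193b and miR-365 are transcribed together as a cluster that favours brown adipocyte differentiation, and miR-193 has a second, related cluster with another copy of miR-365. MiR-378 is carried within Ppargc1b, the gene of the coactivator PGC-1β, and is linked to mitochondrial and lipid metabolism, whereas miR-22 is abundant in muscle and heart and is linked to lipid metabolism. Dorsal skin of the mouse contains adipocytes below the dermis and a sheet of striated muscle, the panniculus carnosus, beside the epidermis.

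The groups were 4 arrays each of Ppard+/+ (WT) and Ppard-/- (KO) skin without irradiation (WT no UV, KO no UV) and after repeated UVB doses of 70 mJ/cm2 for 12 weeks (WT UV, KO UV). Per the methods, the animals were hairless albino females of a mixed background (SKH1-C57/Bl6-SV129) with WT and KO littermates, the irradiated skin was free of lesions, and controls were handled without irradiation. Each array read 1 skin sample, and each group holds 4 samples. In whole skin, fewer cells of a type and less of a miRNA per cell cannot be told apart.

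The mature sequences are shown because the seed sets which targets a miRNA shares with another. They are from RefSeq (build GRCm38.p6), 5′ to 3′, with the seed in capitals.
miR-193 (miR-193a-3p): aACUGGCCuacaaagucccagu
miR-193b (miR-193b-3p): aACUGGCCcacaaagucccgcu
miR-365 (miR-365-3p): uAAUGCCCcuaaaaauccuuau
miR-22 (miR-22-3p): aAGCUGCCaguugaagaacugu

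MiR-193 and miR-193b share their seed, while miR-365 and miR-22 shared theirs with no other mature miRNA searched. The search left out the mature miRNAs of chromosome 18, which holds miR-378, and no sequence is shown for miR-378. Counted from the 5′ end, the change from miR-193 to miR-193b is U9C, A20G and G21C. All 3 positions lie within the 16 bases that the shortest probes of each read, and how far each probe also bound the other miRNA was not tested. On GRCm38.p6, Mir193a and Mir365-2 lie 14366 bases apart on chromosome 11 and Mir193b and Mir365-1 lie 4239 bases apart on chromosome 16. The mature strand of miR-365 is the same from both, so the array cannot tell the copies apart. Mir22 lies within the noncoding gene Mir22hg at chr11:75463716-75463810, and Mir378a lies within Ppargc1b on chromosome 18.

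Levels are given as log2 of the signal after quantile normalization between arrays, with 4 arrays a group, and levels of different miRNAs are not set against each other, since each has its own probes. The floor below which signals carry no order was 4.28, and the mean of every member in every group lay above it. In order of mean, the groups were, for miR-193, WT no UV, WT UV, KO no UV and KO UV, from 7.14 ± 0.39 to 7.85 ± 0.26 (SD). For miR-193b the order ran from WT UV (9.07 ± 0.05) to KO UV (9.25 ± 0.22), and for miR-365 from WT UV (9.27 ± 0.10) to KO no UV (9.67 ± 0.14). For miR-378 it ran from WT UV (8.52 ± 0.13) to KO no UV (8.98 ± 0.27), and for miR-22 from KO no UV (12.19 ± 0.17) to KO UV (12.53 ± 0.24). For each of the 5 miRNAs, every pair of groups next to each other in this order overlapped in their array values.

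**Figure D1:**
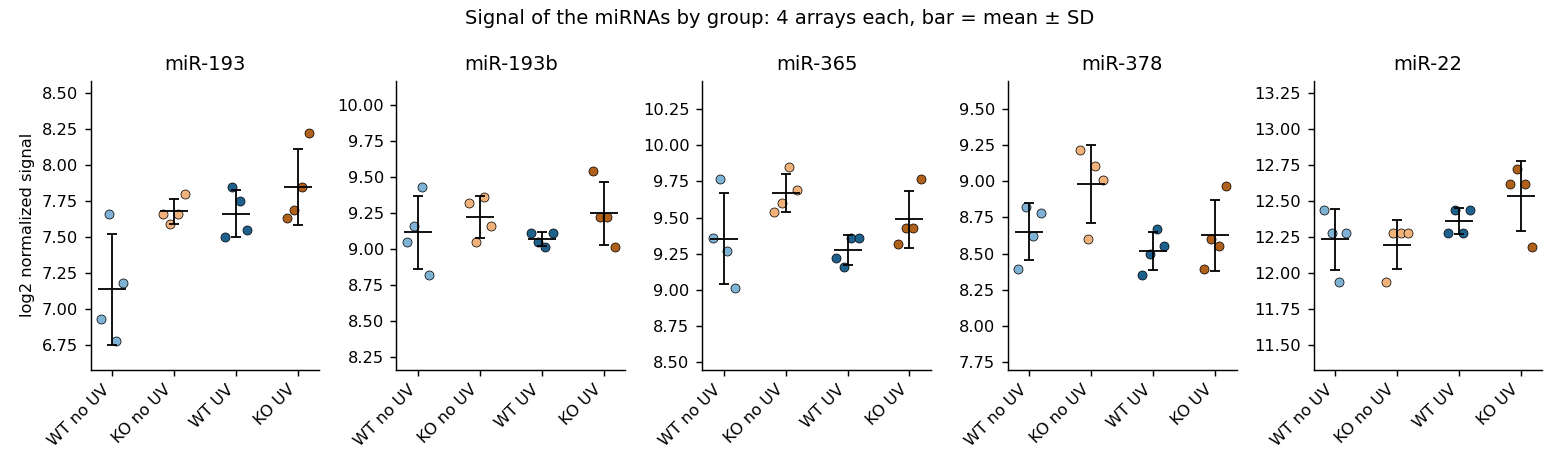
Log2 normalized signal of miR-193, miR-193b, miR-365, miR-378 and miR-22 in the 4 groups; each point is 1 array and the bar is the mean ± SD of 4 arrays. The panels have different positions on the y axis but the same span, and in WT no UV miR-193 lies between 6.78 and 7.66 while the other groups lie between 7.50 and 8.22.

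The arrays were not equally bright before normalization. Mean total signals were 219156 ± 38792 for WT and 325873 ± 59499 for KO without UV (SD, n = 4), and 264515 ± 37294 for WT and 213597 ± 12657 for KO after it. The UV groups lay on 1 slide and the non-irradiated groups on another, so slide and UV state cannot be told apart, and the local background averaged 126 on the first and 67.1 on the second. On the UV slide all WT arrays lay in row 1 and all KO arrays in row 2, so genotype and row cannot be told apart there. No probe was saturated.

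Without UV, the comparison of KO with WT asks what the loss of PPARβ/δ does to resting skin. MiR-193 read 6.93, 7.66, 6.78 and 7.18 in WT, and 7.66, 7.59, 7.66 and 7.80 in KO. Of the KO arrays, 1 was above the brightest WT array, replicate 2, and 2 tied with it, so the groups overlapped. The difference was 0.54 on the log2 scale (95% interval 0.17 to 0.92), or 1.46-fold, with an adjusted p of 0.132 (limma, over 228 miRNAs). Across the 11 other settings of the limma model it ran from 0.18 to 0.54 (limma adjusted p from 0.0963 to 0.343). The value of 0.18 came with normexp background correction, which here added an offset of 50 to each spot signal before log2. MiR-365 read 9.36, 9.77, 9.27 and 9.01 in WT and 9.54, 9.60, 9.85 and 9.69 in KO, a difference of 0.32 (0.02 to 0.62, adjusted p = 0.288 by limma). MiR-378 read 8.39, 8.82, 8.62 and 8.78 in WT and 9.22, 8.60, 9.11 and 9.01 in KO, a difference of 0.33 (0.01 to 0.65, adjusted p = 0.288 by limma). Above the whole WT group lay 1 of 4 KO arrays for miR-365 and 3 of 4 for miR-378, and WT replicate 2 was again the highest WT array of each. MiR-193b differed by 0.11 (-0.17 to 0.38) and miR-22 by -0.04 (-0.32 to 0.24). None of the 5 members was called at an adjusted p of 0.05 by limma, against a background of 0.0% of all tested miRNAs, and 3 of 5 lay under an unadjusted p of 0.05, against 15.8%. None had groups that did not overlap, against 2.63%.

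Before normalization, the KO no UV to WT no UV ratio of the mean signals was 1.91 for miR-193, 1.76 for miR-365, 1.85 for miR-378, 1.58 for miR-193b and 1.48 for miR-22, against 1.49 for the total signal of all miRNAs. Without WT no UV replicate 2, miR-193 differed by 0.72 (adjusted p = 0.00685 by limma) and miR-365 by 0.46 (adjusted p = 0.0305), so that 2 members were called. Over the 16 fits that each left out 1 array, the limma adjusted p ran from 0.00685 to 0.345 for miR-193 and from 0.0305 to 0.627 for miR-365.

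Without UV, the summed signal of the muscle miRNAs was also higher on average in KO than in WT. Of the 6 listed (miR-1, miR-133a, miR-133b, miR-206, miR-208b and miR-499), 4 were detected on all arrays and miR-208b and miR-499 were not detected in any group. Their summed normalized signal was 20500 to 41200 units in WT no UV and 40700 to 50300 in KO no UV. WT no UV replicate 2 was also the highest of its group here, at 41200, with the other 3 at 20500 to 26800. None of the 4 passed the test between genotypes, and their median difference was 0.73, against 0.00 over all tested miRNAs. For KO against WT after UV the muscle median was -0.22, where the median of the 5 members was 0.18. For UV in WT it was -0.23, where that of the members was -0.05. The keratinocyte list was at 21500 to 25500 in WT and 22200 to 27800 in KO, with a median difference of 0.19. The leukocyte list was at 5330 to 7080 in WT and 3430 to 5430 in KO, with a median difference of -0.42 and none of its 7 above 0. The erythrocyte list (2 of 3 tested) had a median difference of 0.41 and the fibroblast and vessel list (7 tested) of 0.33, and none of these miRNAs passed the test between genotypes. WT no UV replicate 2 was also the highest of its group for the keratinocyte list (25500) and the erythrocyte list (1400). It was the lowest for the leukocyte list (5330) and neither for the fibroblast and vessel list (7170). The part of these lists in the values of miR-193, miR-365 and miR-378 was not tested.

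After UV, the comparison of KO with WT asks whether irradiated skin differs by genotype. All 5 members were higher on average in KO, by 0.11 to 0.21, and each 95% interval included 0. MiR-365, the member with the largest difference, read 9.22, 9.16, 9.36 and 9.36 in WT and 9.32, 9.43, 9.43 and 9.77 in KO, a difference of 0.21 (-0.09 to 0.52, adjusted p = 0.765 by limma). Its exact two-sided permutation p was 0.0857, where 4 against 4 arrays can give no less than 0.0286. MiR-193 differed by 0.19 (-0.19 to 0.56), miR-193b by 0.18 (-0.09 to 0.45), miR-22 by 0.18 (-0.10 to 0.45) and miR-378 by 0.11 (-0.21 to 0.43). None was called, against 2.19% of all tested miRNAs, 0 of 5 lay under an unadjusted p of 0.05 in limma, against 9.21%, and none had groups that did not overlap, against 6.14%. The upper ends of these intervals were folds of 1.35 to 1.48, so the intervals do not exclude differences up to that size.

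In WT skin, chronic UV was compared with no UV. MiR-193 read 7.50, 7.85, 7.75 and 7.55 after UV, all above 3 of the 4 arrays without UV, and 2 of them below replicate 2 at 7.66. It was 0.52 higher (0.15 to 0.90, 1.44-fold, adjusted p = 0.0536 by limma), and the exact permutation p was 0.0857, two-sided. The 2 probes of miR-193 gave 0.14 and 0.47 for this difference. These are spot signals scaled by the 75th percentile of miRNAs detected on all arrays, not quantile normalized. The first probe had a spot-to-spot coefficient of variation of 14.8% and the second of 7.0%. MiR-193b, which has the same seed, read 9.05, 9.16, 9.43 and 8.82 without UV and 9.11, 9.05, 9.01 and 9.11 after it, a difference of -0.05 (-0.32 to 0.23). MiR-365 differed by -0.08 (-0.38 to 0.23), miR-378 by -0.13 (-0.46 to 0.19) and miR-22 by 0.12 (-0.15 to 0.40). None was called, against 16.2% of all tested miRNAs, 1 of 5 lay under an unadjusted p of 0.05, against 32.9%, and none had groups that did not overlap, against 21.5%. Across the 12 other settings of the limma model the miR-193 difference ran from 0.18, with normexp, to 0.52, and it passed under 5 of them, with adjusted p-values from 0.0334 to 0.272, while without WT no UV replicate 2 it differed by 0.70 (adjusted p = 0.00503 by limma). Leaving out KO UV replicate 4, which enters only through the shared spread, gave 0.52 (adjusted p = 0.0387), and over all 16 fits without 1 array the adjusted p ran from 0.00503 to 0.137.

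In KO skin, UV was likewise compared with no UV. MiR-22 read 11.94, 12.28, 12.28 and 12.28 without UV and 12.62, 12.72, 12.62 and 12.18 after it. Of the arrays after UV, 3 lay above the whole non-irradiated group and replicate 4 did not. The difference was 0.34 (0.06 to 0.62, 1.27-fold, adjusted p = 0.0609 by limma). Before normalization the mean signal of miR-22 was lower after UV. Its KO UV to KO no UV ratio was 0.768, against 0.655 for the total signal of all miRNAs, so the rise is relative to the other miRNAs. The 2 probes of miR-22, scaled by the 75th percentile and not quantile normalized, gave 0.07 and 0.22. Across the 11 other settings of the limma model the miR-22 difference ran from 0.05, with quantiles within each slide, to 0.40, with normexp. The limma adjusted p-values ran from 0.00127 to 0.804. MiR-378 after UV read 8.39, 8.60, 8.55 and 8.97 in KO, against 9.22, 8.60, 9.11 and 9.01 without UV, a difference of -0.36 (-0.68 to -0.03, adjusted p = 0.0866 by limma). Of the 4 non-irradiated arrays, 3 lay above all irradiated ones. Across the 11 other settings of the limma model the miR-378 difference ran from -0.54 to -0.35. It passed under 3 of them, with limma adjusted p-values from 0.0083 to 0.169. MiR-193 differed by 0.17 (-0.21 to 0.54), miR-193b by 0.03 (-0.25 to 0.30) and miR-365 by -0.18 (-0.49 to 0.12). None was called, against 29.8% of all tested miRNAs, 2 of 5 lay under an unadjusted p of 0.05, against 41.2%, and none had groups that did not overlap, against 20.2%. Without KO UV replicate 4, both passed the test, with a difference of 0.46 for miR-22 (adjusted p = 0.011 by limma) and of -0.47 for miR-378 (adjusted p = 0.03). MiR-378 also passed without KO no UV replicate 2, at -0.48 (adjusted p = 0.0258 by limma), and miR-22 without WT no UV replicate 3, at 0.34 (adjusted p = 0.0412). Over the 16 such fits the limma adjusted p ran from 0.011 to 0.156 for miR-22 and from 0.0258 to 0.224 for miR-378. The muscle list was at 19500 to 24500 units in KO UV, against 40700 to 50300 in KO no UV, and all 4 of its measured members fell (miR-133a by 1.25, adjusted p = 0.00125 by limma). Its part in the value of miR-378 was not tested.

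The interaction asks whether the UV effect differs by genotype and was taken as the WT effect less the KO effect. It was 0.36 for miR-193 (-0.17 to 0.89, adjusted p = 0.606 by limma), 0.22 for miR-378 (-0.23 to 0.68), 0.11 for miR-365 (-0.32 to 0.54), -0.07 for miR-193b (-0.46 to 0.31) and -0.22 for miR-22 (-0.61 to 0.17). No member was called, against 2.19% of all tested miRNAs, and 0 of 5 lay under an unadjusted p of 0.05 in limma, against 12.7%. The effect of UV on miR-193 is therefore not shown to differ between genotypes, although the value in WT was larger.

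**Figure D2:**
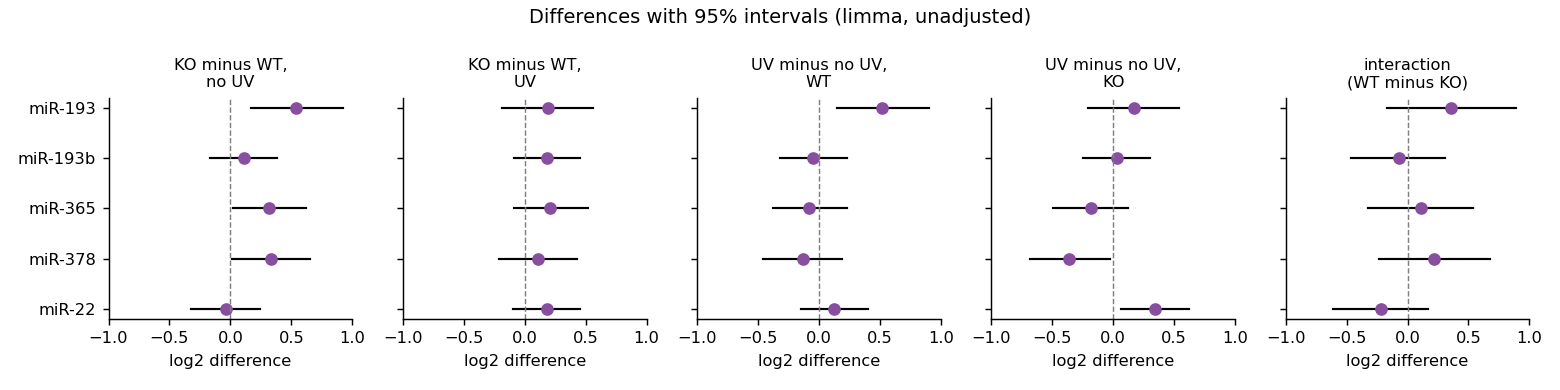
Log2 difference (point) and 95% interval of limma (line, unadjusted) for the 5 miRNAs in the 5 comparisons; the interaction is the WT effect of UV less the KO effect. The intervals that leave out 0 are those of miR-193, miR-365 and miR-378 for KO minus WT without UV, of miR-193 for UV in WT (0.15 to 0.90), and of miR-378 (below 0) and miR-22 (above 0) for UV in KO.

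Set beside all 228 tested miRNAs, the members had median differences of 0.32 for KO minus WT without UV, 0.18 for KO minus WT after UV, -0.05 for UV in WT, 0.03 for UV in KO and 0.11 for the interaction, against 0.00 over all tested miRNAs in each. Of the 5, 4, 5, 2, 3 and 3 lay above 0 in these comparisons, in the same order. Both genotype comparisons share no arrays with each other, but each shares arrays with both UV comparisons.

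**Figure D3:**
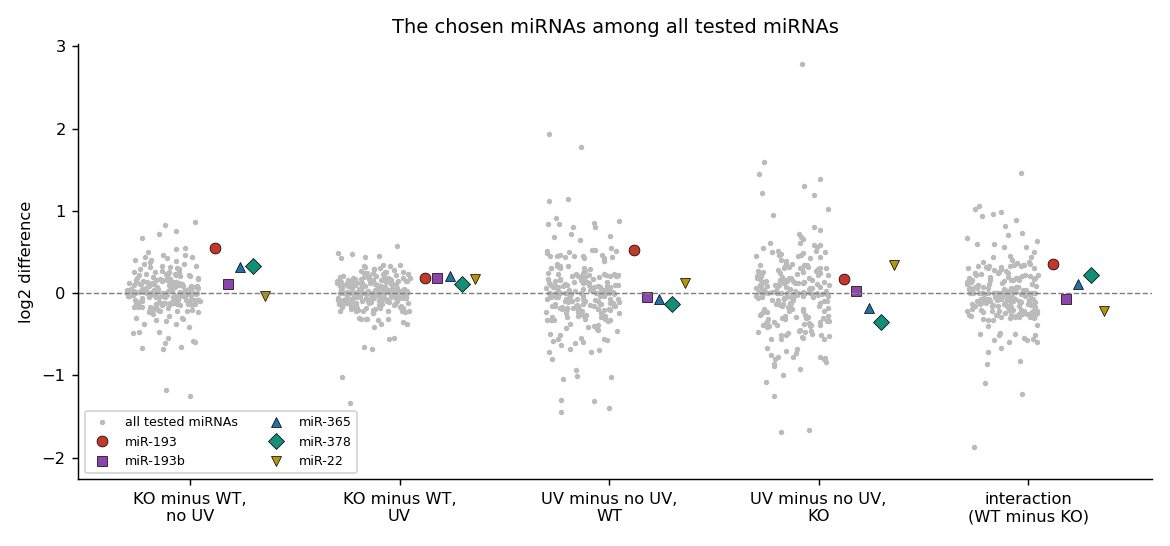
Log2 differences of all 228 tested miRNAs (grey points, spread sideways at random) and of the 5 chosen miRNAs (coloured symbols) in the 5 comparisons. The chosen miRNAs lie between -0.36 and 0.54, within the cloud of all tested miRNAs.

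Within an array, a difference between 2 miRNAs cancels a scaling factor shared by all miRNAs of that array. It does not cancel the rank mapping of quantile normalization, which these values went through, or a background that differs between slides. The absolute size of the difference has no meaning because the probes differ. The cluster mates were compared in this way, with 20 such changes tested by exact permutation. MiR-193 minus miR-365 was -2.43, -2.11, -2.49 and -1.82 in WT no UV and -1.72, -1.31, -1.61 and -1.81 in WT UV. These groups did not overlap, and the change was 0.60 (exact two-sided p = 0.0286, the smallest that 4 against 4 can give, adjusted p = 0.229 over 20). In KO it was -1.88, -2.0, -2.19 and -1.89 without UV and -1.69, -1.74, -1.58 and -1.55 after it, a change of 0.35 that again did not overlap (exact p = 0.0286, adjusted 0.229). With the arrays scaled by a percentile in place of quantiles, the WT change was 0.50 (exact p = 0.0571) and the groups overlapped. MiR-193b minus miR-365, the mates on chromosome 16, changed by 0.03 in WT and 0.21 in KO after UV, with exact p-values of 0.857 and 0.314. No difference in these changes between the 2 clusters was tested.

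The other strands of the same hairpins were measured by their own probes. MiR-193* was detected on 1 array of WT no UV and 4 of KO no UV and on none after UV, and its level lay under the floor. MiR-378* was 6.13 ± 0.20 in WT no UV and 6.56 ± 0.16 in KO no UV, which did not overlap (0.42, exact two-sided permutation p = 0.0286, limma adjusted p = 0.161). It was 6.17 ± 0.27 in KO UV, a difference of -0.39 from KO no UV (limma adjusted p = 0.059). MiR-378 minus miR-378* changed by -0.09 to 0.04 in the 4 comparisons, with exact permutation p-values of 0.686 to 1.0. MiR-22* was 6.88 ± 0.29 in KO no UV and 6.57 ± 0.12 in KO UV, a difference of -0.30 against 0.34 for miR-22. MiR-22 minus miR-22* was 5.32 ± 0.14 in KO no UV and 5.96 ± 0.35 in KO UV, a change of 0.65 (exact permutation p = 0.0571, adjusted 0.229), and 5.60 ± 0.19 in WT no UV and 5.95 ± 0.10 in WT UV, a change of 0.35 (exact permutation p = 0.0571, adjusted 0.229). With percentile scaling these changes were 0.60 in KO and 0.39 in WT, and the groups did not overlap (exact permutation p = 0.0286 for each, adjusted 0.19).

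**Figure D4:**
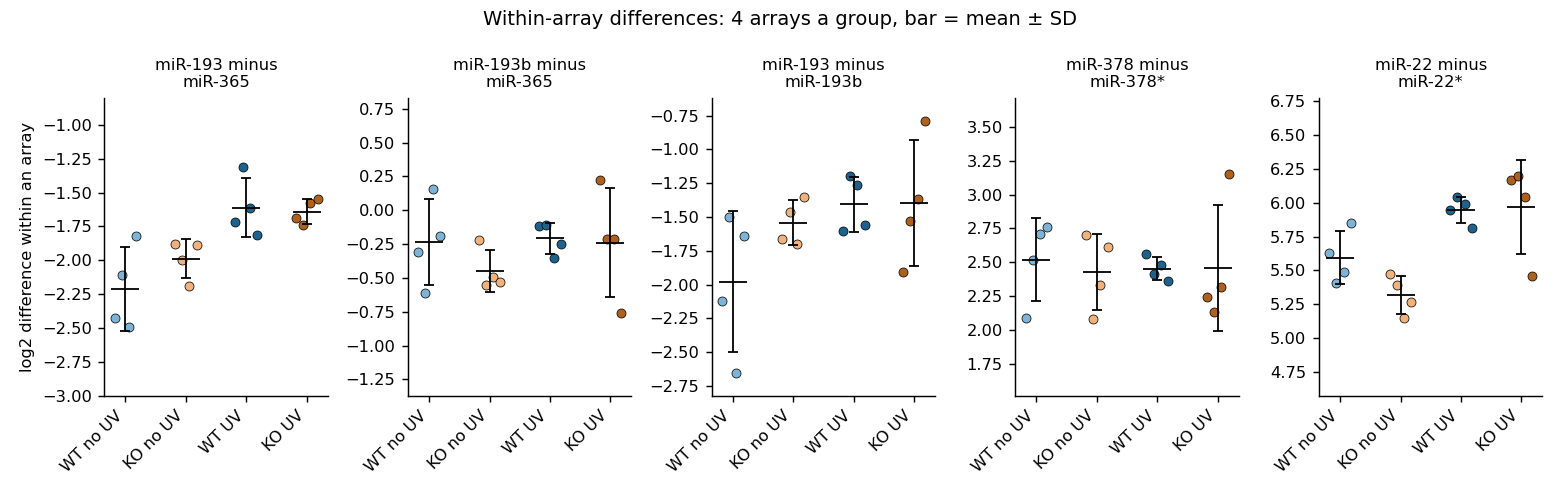
Within-array log2 differences of 5 pairs in the 4 groups; each point is 1 array and the bar is the mean ± SD of 4 arrays. MiR-193 minus miR-365 moves from -2.21 in WT no UV to -1.61 in WT UV, and miR-22 minus miR-22* from 5.32 in KO no UV to 5.96 in KO UV.

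Probe values were scaled by the 75th percentile and not quantile normalized, so their sizes are not set against the differences above. The 2 probes of a member agreed in sign for 18 of 20 differences between groups. The exceptions were miR-193 in KO after UV, at -0.20 and 0.31, and miR-22 in WT after UV, at -0.12 and 0.11. The probes of miR-193b, miR-365 and miR-378 lay within 0.13 of each other.

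The likeness of profiles was measured as the root mean square difference of centred log2 values over the 16 arrays, among 166 other miRNAs detected on all arrays, with points that share arrays and normalization. MiR-193 lay nearest to miR-126-3p and miR-200a (0.254 each) and miR-193b to miR-151-5p (0.131) and miR-107 (0.166). MiR-365 lay nearest to miR-22* (0.154) and miR-26b (0.174), miR-378 to miR-30c (0.172) and miR-181b (0.195), and miR-22 to miR-20a (0.148) and miR-152 (0.151). MiR-193 and miR-193b were 0.401 apart, and of all pairs of members, miR-365 and miR-378 were nearest, at 0.211. The root mean square of each profile around its own mean was 0.34 for miR-193 and 0.18 for miR-193b. It was 0.23 for miR-365, 0.26 for miR-378 and 0.21 for miR-22, so several of these distances are little smaller than that spread. The median distance from a member to the 166 others was 0.30 to 0.42.

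Other miRNAs of fat were counted from lists. Of 14 miRNAs of adipocyte differentiation and lipid metabolism, 10 were tested, and none was called between genotypes. After UV, 3 of the 10 were called in WT and 3 in KO, against 16.2% and 29.8% of all tested miRNAs. In WT, miR-130a (0.46, adjusted p = 0.00963 by limma) and miR-130b (0.44, adjusted p = 0.0251) rose, both known to repress PPARγ, miR-130b from 4.46 ± 0.23, near the floor, while miR-103 fell by 0.23 (adjusted p = 0.00683). In KO, miR-130b rose from the floor (adjusted p = 0.00498 by limma), for which no size is given, and miR-143, known to favour adipocyte differentiation, and miR-370 fell by 0.79 and 0.77. The median difference of the list was -0.01 in WT and 0.01 in KO, against 0.00 over all tested.

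Of 10 miRNAs that favour brown or beige fat, 8 were tested, of which none was called in WT after UV and 3 rose and 3 fell in KO, against 16.2% and 29.8% called among all tested miRNAs. Among them, miR-196a rose from the floor, miR-203, an epidermal miRNA, rose by 0.59 (adjusted p = 0.0284 by limma) and miR-30b fell by 0.78 (adjusted p = 0.0168). Of 6 that oppose it, none was called in WT and 3 rose and 2 fell in KO, against the same shares. Those that fell were miR-133a and miR-133b, which are also muscle miRNAs and are counted in that list too. The median difference after UV in KO was -0.09 for the favouring list and 0.28 for the opposing one, against 0.00 over all tested. The keratinocyte list, with 7 measured, was detected in full on all arrays and had 4 that rose in WT and 6 that rose in KO after UV, with summed signals of 26100 to 31700 and 29300 to 43000, against 16.2% and 29.8% of all tested miRNAs called. Of the leukocyte list, with 7 measured, 3 fell in WT after UV, and 1 rose and 1 fell in KO, against the same shares. The part of these cell type lists in the values of the 5 members was not tested.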

How the data were processed

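RNA of 16 dorsal skin samples was hybridised to 1-colour Agilent mouse miRNA arrays, 4 per group, grouped by the sample titles. The deposited scanner files hold linear intensity values, background-subtracted and summed per miRNA by Agilent Feature Extraction 9.5.3.1 per the file headers, with a detection flag. The authors also deposited a series table of log2 values, normalized by an invariant set and by quantiles per the methods, whose offset is unstated; it served as an alternative. The array held 11540 spots.

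Total gene signals were quantile normalized (limma 3.58.1, R 4.3.3), floored at 19.4 units and log2 transformed. Tied ranks give tied values, as for miR-22. Tests covered the 228 miRNAs that every array of some group detected. One group-means model (lmFit, eBayes) covered all 16 arrays, and calls used a Benjamini-Hochberg adjusted p under 0.05. The number of arrays limits the precision. The labels do not say whether samples of 1 group came from separate cages or days, so p-values measure the spread between these samples. Same-numbered arrays deviated with a correlation of 0.132 to 0.32 in the 2 WT groups and with -0.347 to 0.32 in the other comparisons. The labels do not say whether the numbers pair arrays, and this was not tested. Members, lists and tests were chosen with earlier results of these data known. The named miRNAs were all 5 members, their other strands and up to 3 called miRNAs of a list in each comparison. These 3 had the largest absolute differences, whatever the direction, so other called miRNAs were left unnamed.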

Additional observations from a re-analysis of the deposited data

Results flagged for a closer look

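MiR-22 in KO no UV replicate 1 stood apart from its group after quantile normalization. Its log2 normalized signal was 11.94, where the other 3 arrays were at 12.28, the same value on each because quantile normalization gives equal ranks equal values. Of the 20 sets of 4 arrays looked at, 5 miRNAs in 4 groups, this was the one marked as an outlier. With the other 3 values tied, any departure would be marked, so no chance rate is given. Before normalization the signal was 3930 on replicate 1 and 7320, 6850 and 5990 on the others. Without that array, miR-22 differed between KO and WT without UV by 0.04 in place of -0.04.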

How the results depend on the processing

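No member was called in KO against WT after UV or in the interaction under any setting tried. Leaving out 1 array at a time, 0 to 2 members were called for KO against WT without UV, 0 to 1 for UV in WT and 0 to 2 for UV in KO. The arrays that changed a call were WT no UV replicate 2, WT no UV replicate 3, KO no UV replicate 2 and KO UV replicate 4. For UV in WT, 1 member was called with the 75th percentile of all miRNAs, the authors' series table, no detection filter, detection on all 16 arrays and a floor of 1 unit (miR-193 in each), and 1 with normexp (miR-22, 0.29, adjusted p = 0.00912 by limma). For UV in KO, 1 was called with the 75th percentile of detected miRNAs and 1 with quantiles within each slide (miR-378, -0.53 and -0.54), and 2 with normexp (miR-378 and miR-22). The causes were not tested. With the replicate number as a block, 0 members were called in every comparison, also on the 8 WT arrays alone, a fit chosen after seeing the data. The slide could not be fitted as a block for the UV comparisons.

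Values near 0 changed sign. MiR-22 without UV was 0.03, 0.02 and 0.01 with the 75th percentile of detected miRNAs, of all miRNAs and normexp, and in WT after UV -0.02 with the first and -0.12 with quantiles within each slide. MiR-193b was 0.01 in WT after UV with normexp, and in KO after UV -0.04 with the 75th percentile of detected miRNAs and -0.14 within each slide. With the slide row as a covariate, miR-378 in KO against WT after UV was -0.01 and the miR-365 interaction was 0.00. With percentile scaling, also chosen after seeing the data, miR-193 minus miR-365 and miR-193b minus miR-365 changed by 0.04 and 0.02 in KO against WT after UV, miR-193b minus miR-365 by -0.02 for UV in WT, and miR-378 minus miR-378* by -0.01 in KO against WT after UV and 0.00 for UV in KO. Leaving out 1 array, miR-22 without UV ran from -0.14 to 0.04, miR-378 in KO against WT after UV from -0.01 to 0.19, miR-193b and miR-365 for UV in WT from -0.15 to 0.06 and from -0.19 to 0.06, miR-193b for UV in KO from -0.07 to 0.11, and the interactions of miR-193b and miR-365 from -0.17 to 0.03 and from -0.01 to 0.25. Quantiles within each slide moved the median of all tested miRNAs by -0.15 in WT and -0.12 in KO after UV.

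Over all miRNAs, the number called ran from 0 to 17 without UV and 0 to 14 after UV between genotypes. It ran from 1 to 59 for UV in WT, from 16 to 80 for UV in KO and from 0 to 13 for the interaction. Besides limma calls at an adjusted p, these ranges include the methods' threshold (unadjusted p under 0.001 and a fold of at least 1.5). For comparisons of 2 groups they also include an exact permutation without adjustment.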
